A study of Homo sapiens with 23 samples.

Results

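The brush border and CDX genes VIL1, CDHR5, CDH17, SI, ALPI, ANPEP, DPP4, MEP1A, CDX1 and CDX2 were taken by gene symbol from the TPM tables of all 23 libraries, 10 of 60564 genes listed. TPM is a relative level of transcripts, corrected for transcript length and scaled to the same total in every library. The libraries came from Caco-2, a human colorectal adenocarcinoma line used as a gut model (11 libraries), and HepG2, a human hepatocellular carcinoma line used as a liver model (12 libraries). Cells of either line were grown in a microfluidic chip, alone (mono-culture) or with the other line in a chamber linked by circulating medium (co-culture). For 1 day they received 1 mM of free fatty acids (FFAs, palmitic and oleic acid) or no FFAs (control). This gave 4 groups per line. There were 2 libraries of co-cultured Caco-2 without FFAs and 3 of every other group. The study's methods describe independent experiments and biological replicates for the sequencing, without tying them to libraries. The labels do not say which same-group libraries came from separate chips, so the p-values measure the spread between these libraries, part of which may be technical. Both lines are tumor lines, and the labels give no number of days of growth after confluence, on which brush border formation in Caco-2 depends.

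The brush border is the layer of microvilli on the apical side of enterocytes. Villin (VIL1) bundles its actin, the protocadherin CDHR5 links the tips of neighboring microvilli, and CDH17 is a cadherin of the intestinal epithelium. The membrane carries hydrolases that finish digestion, namely sucrase-isomaltase (SI), intestinal alkaline phosphatase (ALPI), aminopeptidase N (ANPEP), dipeptidyl peptidase 4 (DPP4) and the alpha subunit of meprin A (MEP1A). CDX1 and CDX2 are homeobox transcription factors that set intestinal identity, and SI and CDH17 are known CDX2 targets. ANPEP, DPP4 and villin are not restricted to the gut, and the apical membrane of hepatocytes carries ANPEP and DPP4 as well.

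The promoter sequences of SI, ALPI and CDX2 are shown because these genes were close to 0 TPM in HepG2 and above 4 TPM in every Caco-2 library. They are the 250 bases before the start of the gene in RefSeq on GRCh38.p14, 5′ to 3′ on the strand of the gene, with each TTTATG or its reverse complement CATAAA in capitals. TTTATG is a sequence that CDX proteins are known to bind. The SI bases lie at chr3:165078497-165078746 (minus strand), those of ALPI at chr2:232455903-232456152 (plus strand) and those of CDX2 at chr13:27969316-27969565 (minus strand).
SI: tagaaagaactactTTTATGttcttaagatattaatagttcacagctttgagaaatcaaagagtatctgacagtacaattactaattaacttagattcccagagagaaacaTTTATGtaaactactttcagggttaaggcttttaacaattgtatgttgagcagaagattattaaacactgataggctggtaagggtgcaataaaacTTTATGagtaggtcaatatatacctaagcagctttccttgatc
ALPI: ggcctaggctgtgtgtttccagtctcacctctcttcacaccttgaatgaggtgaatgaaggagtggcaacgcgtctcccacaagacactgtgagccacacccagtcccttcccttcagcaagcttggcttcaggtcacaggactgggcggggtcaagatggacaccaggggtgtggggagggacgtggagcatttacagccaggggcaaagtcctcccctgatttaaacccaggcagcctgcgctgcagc
CDX2: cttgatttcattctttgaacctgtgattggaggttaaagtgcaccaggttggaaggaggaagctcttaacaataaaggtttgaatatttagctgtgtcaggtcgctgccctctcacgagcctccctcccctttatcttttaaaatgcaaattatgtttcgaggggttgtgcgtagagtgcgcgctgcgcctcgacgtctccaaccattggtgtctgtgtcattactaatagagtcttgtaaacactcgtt
The SI bases held TTTATG 3 times, with first bases at -236, -139 and -43 from the start of the gene. The bases before ALPI and CDX2 held no match, and neither did those before ANPEP and DPP4. The motif was found on either strand in 9.6% of the 35116 promoters of the table. GTTAAT, a sequence that HNF1 factors are known to bind, occurred 1 time before SI (6.2% of all promoters). The GC content was 31.6% before SI, 45.2% before CDX2 and 58.4% before ALPI, beside a median of 58.0% over all promoters. These matches describe letters only, and binding was not measured. Of the 10 genes, 5 matched the table by symbol, and the others were VIL1, CDHR5, CDH17, MEP1A and CDX1.

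Some libraries stood apart from others with the same labels. The number of genes above 0 TPM was 21588 to 22416 in the 4 HepG2 libraries numbered 3 and 19259 to 20873 in the other 8. In Caco-2 it was 22637 to 23682 in the 3 libraries numbered 3 and 23689 in co-culture control replicate 2. It was 20996 to 22126 in the other Caco-2 libraries. Co-culture control replicate 2 is 1 of only 2 libraries of its group. Transferrin (TF), which HepG2 expressed at 5680 to 9359 TPM, reached 42.8 and 133 TPM in the co-cultured Caco-2 libraries numbered 1, against 4.17 to 10.2 TPM in the other 9 Caco-2 libraries. AMBP showed the same order, with 23.5 and 62.0 TPM in those 2 libraries, 6.47 to 13.3 TPM in the other 9 and 3383 to 5848 TPM in HepG2. The labels' extraction text names myoblasts, whereas every other label names Caco-2 or HepG2.

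In Caco-2 the genes formed a steep order of levels. VIL1 had the highest median TPM over the 11 libraries (470.4), followed by CDH17 (400.0), DPP4 (356), CDHR5 (149), CDX2 (82.3), MEP1A (19.9), ALPI (16.2), SI (9.33), ANPEP (4.95) and CDX1 (0). VIL1 was above CDH17 in 11 of 11 libraries. CDH17 was above DPP4 in 9 of 11 and MEP1A above ALPI in 8 of 11, so the order of these neighbors was not kept in every library. Each of the remaining steps held in 11 of 11 libraries. VIL1 ranked between 249 and 382 among all genes of a Caco-2 library, whereas SI ranked between 7762 and 11009. In HepG2 the order was different, with VIL1 (median 203 TPM), ANPEP (166), DPP4 (90.7) and MEP1A (44.1) ahead of CDHR5 (1.42), and with CDH17, CDX2, ALPI, SI and CDX1 below 1 TPM in the median.

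**Figure D1:**
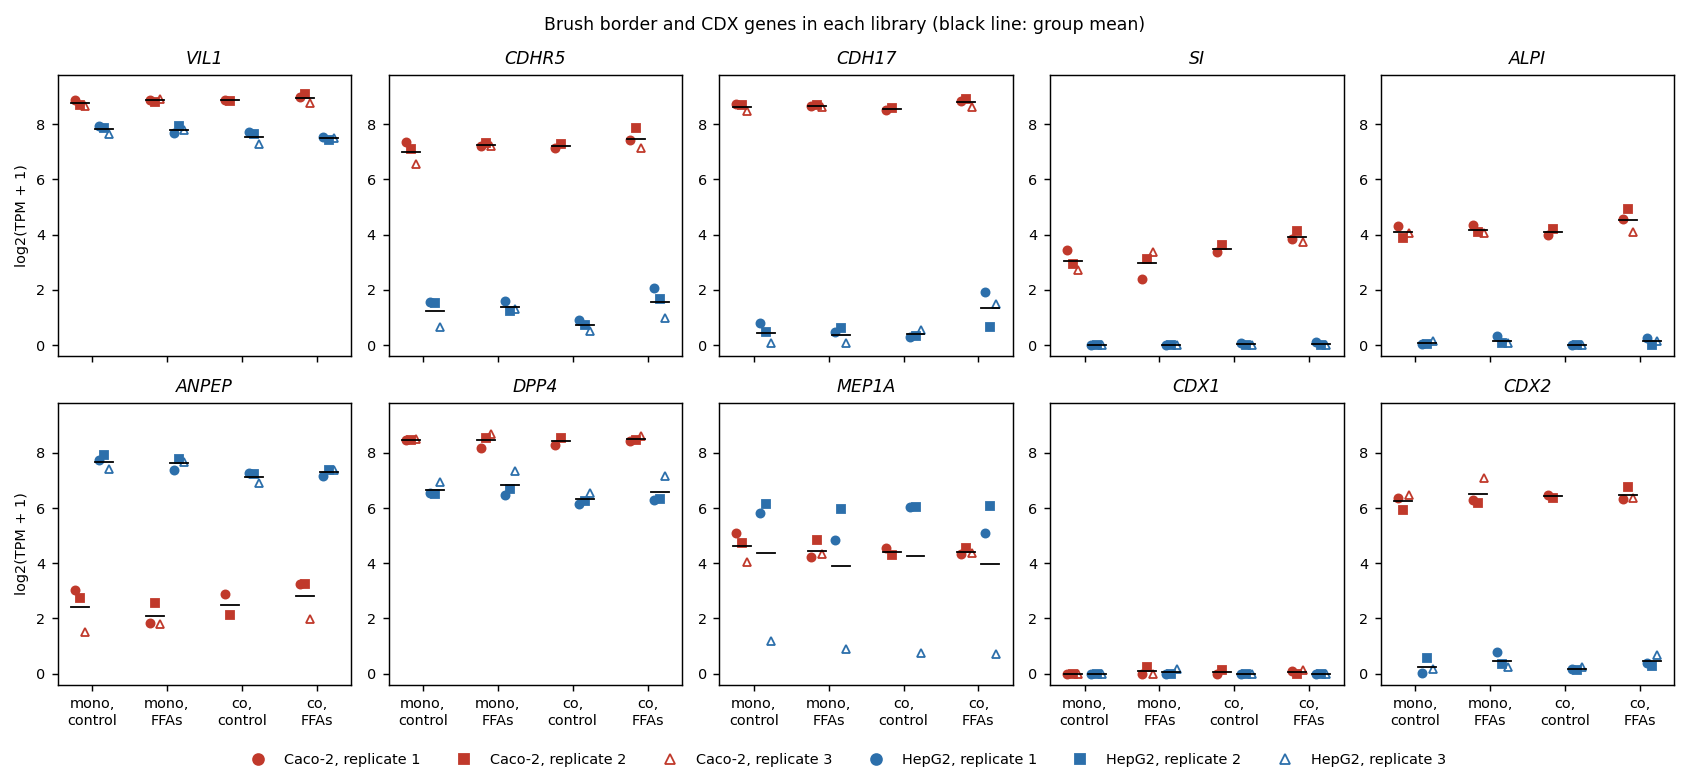
Levels of the 10 genes as log2(TPM + 1) in each of the 23 libraries, by culture (mono or co) and treatment (control or FFAs). Each point is 1 library, red for Caco-2 and blue for HepG2, shaped by replicate number, and the black lines are group means. Caco-2 lies above HepG2 without overlap for 7 genes and below it for ANPEP, CDX1 lies near 0 in both, and MEP1A in HepG2 splits by replicate number.

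The comparison between the lines asks how far these genes separate the gut model from the liver model. CDX1 was too low to test. Of the other 9 genes, 7 were higher in Caco-2, 1 was lower and 1 did not pass the threshold (limma, adjusted p under 0.05, averaged over the 4 matched conditions). Over all 16495 genes tested, 79% were called, 49.8% higher in Caco-2 and 29.2% lower, so the lines differed for most genes. The 2 sets of libraries did not overlap for 8 of the 9 genes, as for 42.7% of all genes tested. The median log2 difference was 3.33 over the 9 genes and 0.24 over all genes.

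The scaffold and adhesion genes were higher in Caco-2. VIL1 (ENSG00000127831, chr2:218419121-218453295) lay between 408 and 551 TPM in Caco-2 and between 153 and 244 TPM in HepG2, so that HepG2 was not without villin RNA. Its mean was 465 ± 40.8 TPM (SD, n = 11) against 204 ± 28.2 TPM (SD, n = 12), a ratio of 2.28 and a log2 difference of 1.19 (SE 0.06, limma adjusted p = 2.79e-13). CDHR5 (ENSG00000099834, chr11:616577-626078) was at 92.4 to 231 TPM in Caco-2 and at 0.42 to 3.17 TPM in HepG2, a log2 difference of 6.005 (SE 0.14, limma adjusted p = 1.5e-18). The largest difference of the 9 genes was that of CDH17 (ENSG00000079112, chromosome 8), with 354 to 480 TPM in Caco-2 and 0.05 to 2.75 TPM in HepG2. Its log2 difference was 8.01 (SE 0.12, limma adjusted p = 2.09e-21). All 3 genes kept the lines apart in every library, VIL1 by the narrowest margin.

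The hydrolases did not share 1 direction. SI (ENSG00000090402, chr3:164978898-165078496), which splits sucrose and isomaltose, was at 4.23 to 16.6 TPM in Caco-2. In HepG2 it did not exceed 0.07 TPM and was listed at 0 in 6 of 12 libraries. Its log2(TPM + 1) differed by 3.33 (SE 0.11, limma adjusted p = 2.59e-16), and no ratio is given against a group that holds zeros.

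ALPI (ENSG00000163295, chr2:232456125-232460753), which removes phosphate from lipopolysaccharide and other luminal substrates, was at 13.8 to 29.8 TPM in Caco-2. In HepG2 it was at 0 to 0.25 TPM, a difference of 4.14 (SE 0.09, limma adjusted p = 8.03e-19). Reads can be split among ALPI and its near-identical neighbors ALPP and ALPG, so its level is uncertain to that extent. In the 4 Caco-2 groups ALPP averaged 2.91 to 4.64 TPM and ALPG 0.72 to 2.56 TPM, below ALPI in each.

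DPP4 (ENSG00000197635, chr2:161992245-162074394), which cuts dipeptides from proline-containing peptides and inactivates incretins, was at 285 to 407 TPM in Caco-2 and at 70.0 to 160 TPM in HepG2. Its mean was 354 ± 33.6 TPM (SD, n = 11) against 99.1 ± 28.0 TPM (SD, n = 12), and its log2 difference was 1.86 (SE 0.11, limma adjusted p = 6.74e-12). DPP4 was thus abundant in both lines, and the highest HepG2 library stayed below the lowest Caco-2 library.

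ANPEP (ENSG00000166825, chr15:89784895-89815401), which trims amino acids from the N-terminus of peptides, ran the other way. It was at 1.88 to 8.59 TPM in Caco-2, the lowest of the 5 hydrolases there, and at 119 to 239 TPM in HepG2. The log2 difference was -4.98 (SE 0.18, limma adjusted p = 1.85e-15), and the lines did not overlap. The difference was smaller in co-culture, at -4.65 (SE 0.39) in the controls and -4.47 (SE 0.35) with FFAs, than in mono-culture, at -5.25 (SE 0.35) and -5.54 (SE 0.35). The difference in the culture effect itself is given with the culture comparison.

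**Figure D2:**
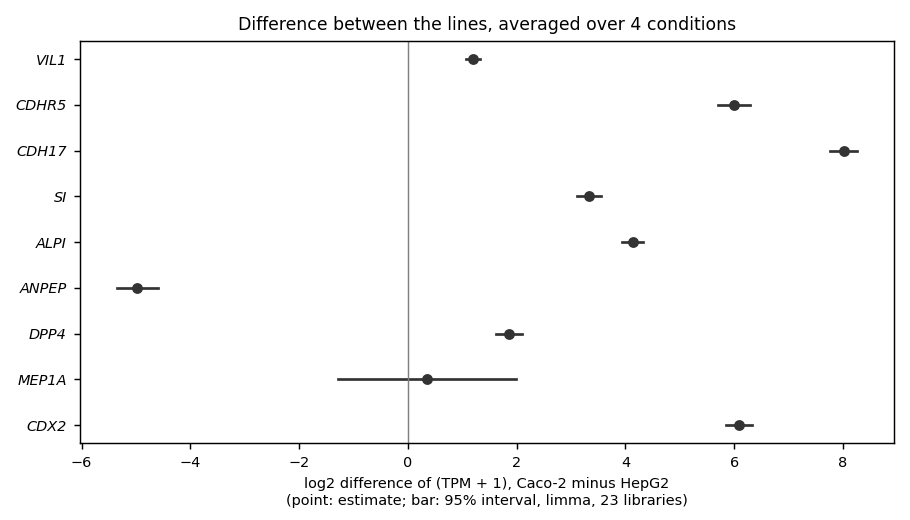
Difference between Caco-2 and HepG2 in log2(TPM + 1) for the 9 genes tested, averaged over the 4 conditions. Points are estimates and bars 95% intervals from limma, and the bar of MEP1A, from -1.29 to 1.99, is the one that includes 0.

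The CDX factors differed from each other. CDX2 (ENSG00000165556, chr13:27960918-27969315) was at 60.4 to 136 TPM in Caco-2, with a median of 82.3 TPM, and at 0.02 to 0.73 TPM in HepG2. The log2 difference was 6.09 (SE 0.12, limma adjusted p = 6.89e-20). CDX1 (ENSG00000113722, chr5:150166778-150184558) was listed at 0 in 7 of 11 Caco-2 libraries and in 11 of 12 HepG2 libraries, and reached no more than 0.18 TPM in the former and 0.12 TPM in the latter. It passed no filter on low values and was tested in no comparison. The third CDX gene, CDX4, was listed at 0 in all 23 libraries.

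MEP1A (ENSG00000112818, chr6:46793389-46839778), a subunit of a secreted and membrane-bound metalloprotease, was split in HepG2 by the replicate number in the labels. In mono-culture control it was at 55.2, 70.0 and 1.28 TPM in replicates 1, 2 and 3, and with FFAs at 27.9, 61.4 and 0.85 TPM. In co-culture control it was at 64.4, 64.5 and 0.68 TPM, and with FFAs at 33.1, 66.5 and 0.64 TPM. The 4 libraries numbered 3 thus lay between 0.64 and 1.28 TPM and the other 8 between 27.9 and 70.0 TPM, whatever the culture or treatment. In Caco-2 the gene ran from 15.6 to 32.9 TPM with no such split.

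The averaged difference between the lines for MEP1A was 0.35 (SE 0.78), with a 95% interval from -1.29 to 1.99 (limma adjusted p = 0.688). Without the 4 HepG2 libraries numbered 3, a setting chosen after their values were seen, it was -1.27 (limma adjusted p = 5.98e-06), lower in Caco-2. With the replicate number of each line as a block it was 0.32 (SE 0.12, limma adjusted p = 0.0256). This block takes up the drop in the libraries numbered 3, so its p leaves out the spread between replicate numbers. The direction between the lines therefore rested on these 4 libraries. Over all 14255 genes tested in HepG2, 6.81% had all 4 libraries numbered 3 below the other 8, but 17 genes (0.119%) were also at least 10-fold lower in the mean there, MEP1A among them. MEP1B, which codes for the beta subunit of meprin, did not exceed 0.04 TPM in either line. What set these libraries apart was not tested.

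**Figure D3:**
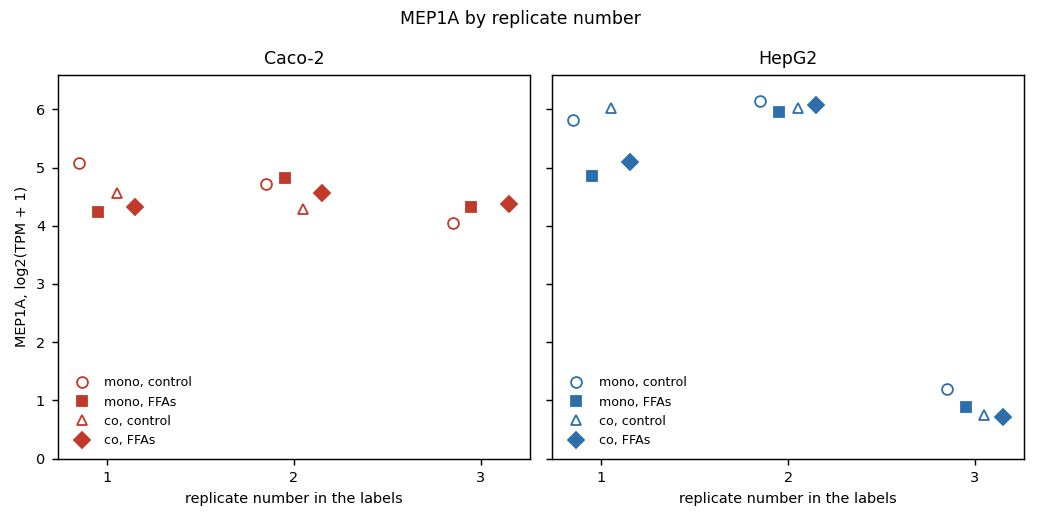
MEP1A as log2(TPM + 1) by the replicate number in the labels, Caco-2 on the left and HepG2 on the right. Each point is 1 library, open for control and filled for FFAs, and the 4 HepG2 libraries numbered 3 lie between 0.64 and 1.28 TPM while the other 8 lie between 27.9 and 70.0 TPM.

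DPP4 also moved with the replicate number, by less. In HepG2 mono-culture control it was at 92.0, 89.5 and 122 TPM in replicates 1, 2 and 3, and with FFAs at 87.6, 102 and 160 TPM. In HepG2 co-culture it was at 70.0, 75.8 and 91.9 TPM in the controls and at 77.9, 79.7 and 142 TPM with FFAs. Replicate 3 was the highest library of its group in 7 of 7 groups of 3 libraries over both lines. This held for 2.07% of the 16495 genes tested, and DPP4 was picked out after its values were seen.

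FFAs in Caco-2 mono-culture answer whether fatty acid loading for 1 day shifts the brush border program of the gut cells by themselves. None of the 9 genes tested passed the adjusted threshold, and none had an unadjusted p under 0.05 (limma). Of all 15081 genes, 0 passed (0%) and 2.61% had an unadjusted p under 0.05. SI was at 9.81, 6.73 and 5.66 TPM in the controls and at 4.23, 7.67 and 9.32 TPM with FFAs, which overlapped. CDX2 was at 81.0, 60.4 and 88.1 TPM in the controls and at 76.9, 71.6 and 136 TPM with FFAs, so that its log2 difference of 0.26 (95% interval -0.23 to 0.76) came with 1 high library.

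Intervals for the abundant genes were narrow. For VIL1, the 95% interval of the log2 difference with FFAs was -0.10 to 0.32, for DPP4 -0.28 to 0.25 and for CDH17 -0.19 to 0.22. It was wide for ANPEP, at -1.33 to 0.61, whose control libraries alone ran from 1.88 to 7.19 TPM. CDHR5 had a difference of 0.25 (-0.19 to 0.69), ALPI 0.09 (-0.35 to 0.52), SI -0.08 (-0.64 to 0.47) and MEP1A -0.16 (-0.68 to 0.36). For none of these 9 genes did FFAs and control libraries separate, as they did for 7.13% of all genes tested.

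In Caco-2 co-culture, with 3 libraries with FFAs and 2 controls, none of the 9 genes passed the adjusted threshold either, beside 3 of all 15081 genes (0.0199%), and 1 had an unadjusted p under 0.05, beside 2.83% of all genes. CDH17 was at 362 and 385 TPM in the controls and at 457, 480 and 394 TPM with FFAs. All 3 libraries with FFAs lay above both controls, and the log2 difference was 0.24 (95% interval 0.01 to 0.47, limma adjusted p = 1). SI was at 9.33 and 11.2 TPM in the controls and at 13.5, 16.6 and 12.4 TPM with FFAs, again without overlap, a difference of 0.42 (-0.20 to 1.05, limma adjusted p = 1). Separation of this kind in the higher direction was seen for 2 of the 9 genes and for 8.27% of all genes, in a comparison of 3 libraries with 2.

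ALPI was at 14.9 and 17.4 TPM in the co-culture controls and at 22.98, 29.8 and 16.2 TPM with FFAs. The third library with FFAs fell between the 2 controls, and the difference was 0.45 (-0.04 to 0.93, limma adjusted p = 1). The other 6 genes had intervals that included 0, with estimates of 0.33 for ANPEP (-0.75 to 1.42), 0.27 for CDHR5, 0.10 for DPP4, 0.09 for VIL1, 0.045 for CDX2 and -0.0020 for MEP1A. Estimates were above 0 for 8 of the 9 genes, with a median of 0.24 beside a median of 0.00 over all genes. These estimates share the same 5 libraries and are not independent. For all 9 genes tested, the response to FFAs was not shown to differ between co-culture and mono-culture (limma adjusted p = 1.00 for each after rounding, 0 genes of 15081 called, 1.94% at an unadjusted p under 0.05), the widest interval being that of ANPEP, from -0.77 to 2.14.

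Co-culture against mono-culture asks whether the linked liver cells alter the gut cells. SI was the gene with the largest difference in Caco-2. In mono-culture it was at 9.81, 6.73 and 5.66 TPM in the controls and at 4.23, 7.67 and 9.32 TPM with FFAs. In co-culture it was at 9.33 and 11.2 TPM in the controls and at 13.5, 16.6 and 12.4 TPM with FFAs. The co-culture median was 12.4 TPM and the mono-culture median 7.20 TPM, and 1 mono-culture control lay above the lowest co-culture control, so that the pooled cultures overlapped by these 2 libraries.

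Averaged over treatments, the log2 difference for SI was 0.70 (SE 0.19, 95% interval 0.28 to 1.12). It did not pass adjustment over all genes (limma adjusted p = 0.308). No gene of the 15081 passed (0%), and 10.5% had an unadjusted p under 0.05. Of the 9 genes, 1 had an unadjusted p under 0.05, a share near that of all genes. With FFAs the 3 co-culture libraries lay above the 3 mono-culture libraries, with a difference of 0.96 (SE 0.25, limma adjusted p = 0.737). This separation was seen for 1 of the 9 genes, beside 4.69% of all genes in the same direction. In the controls the difference was 0.45 (SE 0.28, limma adjusted p = 0.867), with overlap.

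Over all the alternatives, leaving out any 1 library included, the averaged difference of SI stayed above 0 and its adjusted p between 0.143 and 0.684. Without the 2 co-cultured Caco-2 libraries with the highest TF it was 0.78, with 1 library left in the co-culture controls. SI itself did not exceed 0.07 TPM in any HepG2 library. Other gene lists in Caco-2 had estimates that leaned in a common direction between the cultures. These come from the same 11 libraries and are not independent. Of 14 hepatocyte markers, 12 had estimates above 0 averaged over treatments, with a median of 0.25. Of the 14, 3 had an unadjusted p under 0.05 there, beside 10.5% of all genes. With FFAs 13 had estimates above 0, with a median of 0.51. Their summed level was 6112 to 7944 TPM in co-culture and 4919 to 7616 TPM in mono-culture, which overlapped. Of the other enterocyte and colonocyte markers, 12 were tested, of which 4 had estimates above 0 and 8 below, with a median of -0.32 averaged over treatments and -0.54 in the controls. The median over all genes was 0.03. The summed level of this list was 339 to 366 TPM in the Caco-2 libraries numbered 3 and 374 TPM in co-culture control replicate 2. In the other Caco-2 libraries it was 434 to 651 TPM. This split falls unevenly on the control groups, and its part in these medians was not tested. None of these markers passed the adjusted threshold, and their part in the value of SI was not tested.

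The other genes showed smaller differences between cultures in Caco-2. VIL1 differed by 0.10 (95% interval -0.06 to 0.25), CDH17 by 0.02 (-0.13 to 0.18), DPP4 by 0.00 (-0.20 to 0.20) and CDX2 by 0.07 (-0.30 to 0.44). CDX2, the factor known to act on SI, was at 88.7 and 82.3 TPM in co-culture controls, 78.4, 106 and 82.3 TPM in co-culture with FFAs, and within 60.4 to 136 TPM in mono-culture. CDHR5 differed by 0.22 (-0.12 to 0.55), ALPI by 0.19 (-0.13 to 0.52) and MEP1A by -0.12 (-0.51 to 0.27). The upper bounds of VIL1, CDH17 and DPP4 were at or below 0.25, so that a change of the size estimated for SI lay outside their intervals.

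ANPEP in Caco-2 was at 7.19, 5.65 and 1.88 TPM in mono-culture controls, 2.57, 4.95 and 2.51 TPM in mono-culture with FFAs, 6.38 and 3.31 TPM in co-culture controls, and 8.59, 8.40 and 2.96 TPM in co-culture with FFAs. The cultures overlapped. The averaged difference was 0.41 (95% interval -0.32 to 1.14, limma adjusted p = 0.686). ANPEP is abundant in HepG2, and the co-culture libraries with the highest TF and AMBP, those numbered 1, were the higher or highest of their groups for ANPEP. Without these 2 libraries the difference was 0.11, with 1 library (3.31 TPM) left in the co-culture controls. ANPEP was also high where TF was low. Co-culture with FFAs replicate 2, at 8.40 TPM of ANPEP, had 10.2 TPM of TF. Mono-culture control replicate 1, at 7.19 TPM of ANPEP, had 6.41 TPM of TF. The part of RNA from HepG2 in the ANPEP values was not tested.

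**Figure D4:**
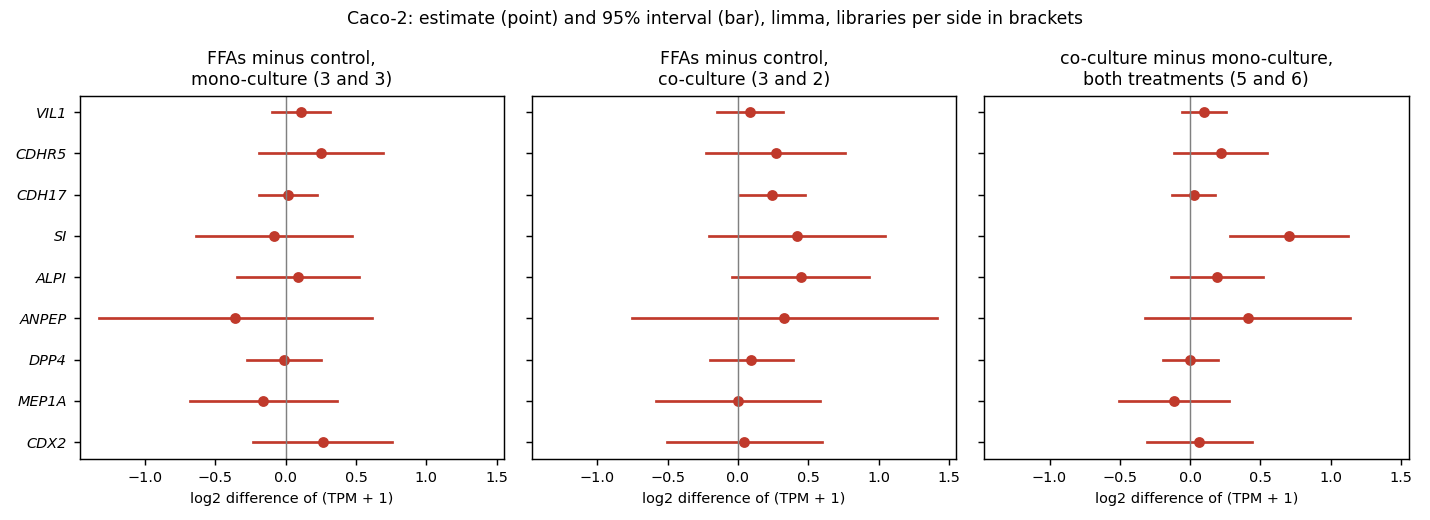
Log2 differences of (TPM + 1) in Caco-2 for the 9 genes tested, for FFAs against control in mono-culture, FFAs against control in co-culture, and co-culture against mono-culture averaged over treatments. Points are estimates and bars 95% intervals from limma. No gene passed the adjusted threshold in any panel, and SI in the right panel (0.28 to 1.12) and CDH17 in the middle panel (0.01 to 0.47) have intervals above 0.

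In HepG2, 6 of the 10 genes passed the filter on low values, namely VIL1, CDHR5, CDH17, ANPEP, DPP4 and MEP1A. CDH17 did so only through co-culture with FFAs, with a mean of 1.71 TPM against 0.32 to 0.40 TPM in the other groups. For co-culture against mono-culture averaged over treatments, estimates were below 0 for 5 of the 6 and above 0 for CDH17, with a median of -0.22 beside -0.02 over all genes. ANPEP had the smallest unadjusted p of the 6. It was at 211, 239 and 168 TPM in mono-culture controls and at 155, 149 and 119 TPM in co-culture controls. With FFAs it was at 167, 220 and 203 TPM in mono-culture and at 140, 165 and 166 TPM in co-culture. All 6 co-culture libraries lay below all 6 mono-culture libraries, which held in this direction for 1 of the 6 genes and for 0.758% of all 14255 genes tested.

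The averaged log2 difference of ANPEP was -0.43 (SE 0.11, 95% interval -0.67 to -0.19, limma adjusted p = 0.158). It did not pass in this fit, in which 8 of all genes did (0.0561%) and 12.5% had an unadjusted p under 0.05. With the replicate number as a block the difference was again -0.43 and passed (limma adjusted p = 0.0377), beside 492 of all genes. Without the 4 HepG2 libraries numbered 3 and without the block, a setting chosen after values were seen, it was -0.44. It did not pass there (limma adjusted p = 0.142), beside 4 of all genes that did. VIL1 was at 243, 233 and 200.3 TPM in mono-culture controls and at 210.0, 201 and 153 TPM in co-culture controls. With FFAs it was at 205, 244 and 220 TPM in mono-culture and at 187, 171 and 182 TPM in co-culture, without overlap. With FFAs, separation in the lower direction was seen for 2 of the 6 genes (ANPEP and VIL1), beside 5.44% of all genes. The averaged difference was -0.29 (SE 0.09, limma adjusted p = 0.236, or limma adjusted p = 0.0729 with the replicate block).

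DPP4 was lower in co-culture than in the mono-culture library of the same number and treatment in 6 of 6 pairs, as were ANPEP and VIL1. The share of all genes with this order was not counted, so these pairs are no support for a change. The averaged difference of DPP4 was -0.29 (SE 0.18, limma adjusted p = 0.552, or limma adjusted p = 0.0833 with the replicate block), and the cultures overlapped. CDH17 ran the other way with FFAs, at 0.38, 0.52 and 0.05 TPM in mono-culture and at 2.75, 0.58 and 1.79 TPM in co-culture. This separation in the higher direction was seen for 1 of the 6 genes, beside 4.17% of all genes, and the difference was 0.97 (SE 0.33, limma adjusted p = 0.823, 0 of all genes called, 0%). As CDH17 passed the filter only through co-culture with FFAs, its separation was partly set by the filter and is no support for a rise. In the controls CDH17 overlapped, at 0.76, 0.38 and 0.05 TPM in mono-culture and 0.22, 0.26 and 0.47 TPM in co-culture, and its averaged difference was 0.46 (95% interval -0.05 to 0.96). CDHR5 had an averaged difference of -0.16 (-0.66 to 0.33) and MEP1A one of -0.03 (-2.99 to 2.94).

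The hepatocyte markers of HepG2 had estimates in the direction of ANPEP, VIL1 and DPP4, from the same 12 libraries and thus not independent. Of 14 markers, 14 had estimates below 0 for co-culture averaged over treatments, with a median of -0.23 beside -0.02 over all genes. An unadjusted p under 0.05 was seen for 6 of the 14, beside 12.5% of all genes. None passed the adjusted threshold (limma), and their part in the values of ANPEP, VIL1 and DPP4 was not tested.

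The difference in the culture effect between the lines was tested directly. It was 0.39 for VIL1 (SE 0.12, limma adjusted p = 0.125), 0.67 for SI (SE 0.21, limma adjusted p = 0.142) and 0.84 for ANPEP (SE 0.36, limma adjusted p = 0.286). These are the 3 of the 9 genes with an unadjusted p under 0.05, and their estimates were more positive in Caco-2 than in HepG2. So were those of CDHR5 (0.38), DPP4 (0.29), ALPI (0.23) and CDX2 (0.12), whereas CDH17 (-0.43, 95% interval -0.93 to 0.07) and MEP1A (-0.09) were more negative. None of the 9 passed, beside 88 of the 16495 genes tested (0.533%, of which 0.333% higher and 0.2% lower) and 14.6% at an unadjusted p under 0.05. Of the other lists, 3 of 14 hepatocyte markers and 1 of 9 rows of further brush border hydrolases passed, all more positive in Caco-2. No other list held a gene that passed. All 14 hepatocyte markers had estimates above 0, with a median of 0.40 beside 0.05 over all genes. They come from the same libraries and are not independent.

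CDHR5 and CDH17 were low in HepG2 but separated the co-cultured libraries by treatment. CDHR5 was at 0.89, 0.65 and 0.42 TPM in co-culture controls and at 3.17, 2.20 and 0.95 TPM with FFAs. CDH17 was at 0.22, 0.26 and 0.47 TPM in co-culture controls and at 2.75, 0.58 and 1.79 TPM with FFAs. Neither overlapped between treatments, as for 3.02% of all genes in this direction. Both had an unadjusted p under 0.05, as 1.84% of all genes did, and neither passed adjustment, as none of all 14255 genes did (0%). For CDH17 these shares are no yardstick, as it passed the filter only through co-culture with FFAs, the group where it was high. The differences were 0.85 for CDHR5 (SE 0.32, limma adjusted p = 1) and 0.96 for CDH17 (SE 0.33, limma adjusted p = 1). For the other 4 genes the intervals included 0, with estimates of 0.28 for DPP4 (-0.28 to 0.85), 0.16 for ANPEP (-0.18 to 0.50), -0.05 for VIL1 (-0.33 to 0.23) and -0.31 for MEP1A (-4.50 to 3.88).

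Both genes are abundant in Caco-2. PHGR1, which Caco-2 expressed at 31.6 to 133 TPM, was at 1.63 TPM in HepG2 co-culture with FFAs replicate 1 and at 0.39 TPM in its replicate 3, and was listed at 0 in the other 10 HepG2 libraries. These 2 libraries also held the highest CDH17 of HepG2. CDHR5 did not follow PHGR1, at 0.95 TPM in replicate 3 and 2.20 TPM in replicate 2, where PHGR1 was listed at 0. PHGR1 was picked after its values were seen. Of the enterocyte and colonocyte markers tested in HepG2, 3 had estimates above 0 with FFAs in co-culture and 2 below, with a median of 0.0015. The part of RNA from Caco-2 in these values was not tested. In mono-culture with FFAs against control, the 6 genes of HepG2 had estimates from -0.48 for MEP1A to 0.17 for DPP4 and none had an unadjusted p under 0.05 (0 of all 14255 genes called, 0%, and 2.24% at an unadjusted p under 0.05).

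The genes that work beside these members were taken as lists. Of 16 further genes of the microvillar cytoskeleton and tip links, 15 were tested between the lines, of which 10 were higher in Caco-2 and 3 lower, with a median log2 difference of 1.05. Over all 16495 genes of this comparison, 49.8% were called higher in Caco-2 and 29.2% lower, with a median of 0.24. USH1C (harmonin), which anchors the tip-link protocadherins, was at 61.3 to 90.2 TPM in Caco-2 and at no more than 0.52 TPM in HepG2. Ezrin (EZR), which ties actin to the membrane, was at 289 to 366 TPM against 68.4 to 89.5 TPM. CDHR2, the partner of CDHR5 in the tip link, ran the other way, at 0.77 to 4.03 TPM in Caco-2 and 26.3 to 43.1 TPM in HepG2, a log2 difference of -3.57 (SE 0.15, limma adjusted p = 1.53e-14). The 2 tip-link protocadherins thus had opposite orders between the lines.

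Of 15 further brush border hydrolases, 1 of which (GGT1) is listed under 2 identifiers, 9 rows were tested. Of these, 4 were higher in Caco-2 and 2 lower, beside 49.8% and 29.2% of all genes. The protease TMPRSS2 was at 51.3 to 74.7 TPM in Caco-2 and 1.17 to 5.36 TPM in HepG2. Lactase (LCT), the other large disaccharidase of the small intestine beside SI, was at 0.93 to 2.94 TPM in Caco-2, and maltase-glucoamylase (MGAM), the nearest relative of SI, at 0.11 to 1.10 TPM. Enteropeptidase (TMPRSS15) was listed at 0 in every library. SI was thus above LCT and MGAM in Caco-2, as the lowest SI library (4.23 TPM) exceeded their highest.

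Of 16 other intestinal transcription factors, 15 were tested and 11 were higher in Caco-2 and 4 lower, beside 49.8% and 29.2% of all genes. KLF5, which sustains epithelial growth, was at 85.5 to 196 TPM against 1.78 to 6.57 TPM in HepG2. GATA6 was higher in Caco-2 (98.7 to 174 against 3.64 to 9.96 TPM), whereas GATA4 was lower (1.90 to 7.60 against 59.3 to 75.0 TPM). HNF4A, shared by gut and liver, was at 93.1 to 152 TPM in Caco-2 and 59.6 to 102 TPM in HepG2. Of 16 further enterocyte and colonocyte markers, 14 were tested and 11 were higher in Caco-2 and 2 lower, beside the same shares of all genes. The enterocyte markers retinol binding protein 2 (RBP2) and carbonic anhydrase 2 (CA2) were at 94.1 to 195 TPM and 46.2 to 78.1 TPM there, whereas intestinal fatty acid binding protein (FABP2), a defining marker of mature enterocytes, did not exceed 0.03 TPM. The goblet cell genes MUC2 and ATOH1 did not exceed 0.07 TPM.

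The summed level of the 16 enterocyte and colonocyte markers was 339 to 651 TPM in the Caco-2 libraries and 15.2 to 44.9 TPM in HepG2. That of 14 hepatocyte markers was 4919 to 7944 TPM in Caco-2, which thus expressed several of them itself, and 52890 to 79456 TPM in HepG2. None of the genes of these lists passed the adjusted threshold within Caco-2 for FFAs in either culture or for co-culture averaged over treatments (limma). In the latter comparison the smallest unadjusted p among the microvillar genes was that of SLC9A3R1, a scaffold bound by ezrin, with a log2 difference of 0.26 (SE 0.06, limma adjusted p = 0.308), and among the enterocyte and colonocyte markers, of which 8 of 12 had estimates below 0, that of CA2, at 0.33 (SE 0.10, limma adjusted p = 0.316).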

How the data were processed

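Poly(A) RNA of Caco-2 and HepG2 libraries was sequenced after SMART-Seq v4 amplification. The authors deposited TPM for each library. Per the study's methods, Bowtie2 2.1.0 served to discard reads of rRNA, tRNA and mitochondria, STAR 2.7.1a to align those left (GRCh38, Ensembl 98) and RSEM 1.3.0 to quantify them. Since TPM carry no read numbers, sequencing depth is not known here and counting errors are not given. No pair of libraries was identical. Labels and methods differ on serum during treatment.

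Values were analysed as log2(TPM + 1) with limma 3.58.1 (eBayes with trend, R 4.3.3) on all genes whose highest group mean in the fit was 1 TPM or more: 15081 genes for the 4 Caco-2 groups, 14255 for the 4 HepG2 groups and 16495 for all 23 libraries. Differences are on that scale, which understates changes of low genes. P-values were adjusted by Benjamini-Hochberg over all genes tested, with a threshold of 0.05, and limma was tested on simulated data. All 10 genes were named, and each comparison gives values, a range or a count for those tested in it. From each other list, genes were named by adjusted or smallest unadjusted p and by level in Caco-2. Further list genes (CDHR2, LCT, MGAM, TMPRSS15, HNF4A, FABP2, MUC2, ATOH1, PHGR1, TF, AMBP) were picked for their role or after their values were seen. The 10 genes and the lists were chosen with earlier results of these data known.

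Coordinates come from GENCODE v44 (GRCh38) and promoters from RefSeq. Both lines' libraries carry replicate numbers. In HepG2, same-numbered libraries of the same treatment correlated in their deviations from the group means in all 6 co-culture and mono-culture pairs (r from 0.11 to 0.60). The block was therefore tried as a possible pairing there and not in Caco-2. Deviations within a group sum to 0, so 1 outlying number shared by all groups also raises r for the other numbers. These r thus do not establish a pairing. The highest r was that of number 3 with FFAs. Not every pair was clear, as co-culture control 1 had r = 0.19 with mono-culture control 2, against 0.11 with mono-culture control 1. Co-culture control 2 had r = 0.16 with mono-culture control 2 and 0.14 with mono-culture control 1. The alternatives were a pseudocount of 0.1, no filter, a filter of 5 TPM, median-of-ratios and quantile scaling, no trend, the replicate block, a fit of the groups compared, and leaving out each library. Computations used Python 3.11.15 with pandas 2.3.3.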

Additional observations from a re-analysis of the deposited data

How the results depend on the processing

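The number of the 10 genes called was the same in every comparison and alternative except 2. With the replicate block, 1 gene (ANPEP) was called for HepG2 co-culture against mono-culture averaged over treatments, instead of 0, and MEP1A (0.32) joined the 8 called between the lines. The p of MEP1A with the block leaves out the spread between replicate numbers. Without the HepG2 libraries numbered 3, MEP1A also joined the 8, reversed to -1.27. Of 1094 recomputed log2 differences, 1044 kept direction and side of the threshold, 48 reversed and 2 became significant in the same direction. None of the 48 had been called as reported. They include MEP1A between the lines without the HepG2 libraries numbered 3, which was called in the opposite direction. For FFAs in Caco-2 mono-culture, median-of-ratios scaling gave -0.021 for CDH17. For FFAs in Caco-2 co-culture, MEP1A was 0.0085 with quantile normalization, 0.12 with the replicate block and 0.19 without the 2 libraries highest in TF, and CDX2 was -0.072 with the block. For co-culture in Caco-2, CDH17 was -0.0061 with median-of-ratios scaling and -0.0058 with the block, and DPP4 was -0.030 with the former. For co-culture in HepG2, MEP1A was 0.0032 with median-of-ratios scaling and 0.11 without the libraries numbered 3. The cause was not tested.

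Leaving out 1 library gave ranges that crossed 0. Between the lines it was -0.088 to 0.62 for MEP1A, and the sign turned when any of the 4 HepG2 libraries numbered 3 was left out. For FFAs in Caco-2 mono-culture it was -0.067 to 0.070 for CDH17, -0.29 to 0.20 for SI, -0.0085 to 0.20 for ALPI, -0.12 to 0.13 for DPP4, -0.44 to 0.075 for MEP1A and -0.025 to 0.43 for CDX2. For FFAs in co-culture it was -0.057 to 0.75 for ANPEP, -0.020 to 0.21 for DPP4, -0.14 to 0.14 for MEP1A and -0.088 to 0.13 for CDX2. For co-culture in Caco-2 it was -0.017 to 0.066 for CDH17, -0.072 to 0.059 for DPP4 and -0.019 to 0.21 for CDX2, and in HepG2 -0.83 to 0.85 for MEP1A.

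Numbers of all genes called moved more. The replicate block moved them from 0 to 60 for co-culture in Caco-2, from 8 to 492 for co-culture in HepG2 and from 88 to 835 for the difference between the lines in the culture effect. In Caco-2, 5 of 11 libraries correlated best with a library of their own number, against 10 of 12 in HepG2. Over the other alternatives that kept all libraries, at most 11 genes were called within Caco-2 for any FFAs or culture comparison. Leaving out 1 library moved the 88 to between 33 (without HepG2 mono-culture control replicate 2) and 246 (without its replicate 3), and the 8 in HepG2 to between 0 (without mono-culture control replicate 1) and 15 (without co-culture with FFAs replicate 3). It moved the 3 for FFAs in Caco-2 co-culture to between 2 and 24, with 13 and 24 when co-culture control replicates 1 and 2 were left out, and the 0 for co-culture in Caco-2 averaged over treatments to at most 13. TPM hold no counts, so precision at the low levels of SI, ANPEP and CDX1 is limited by an unknown depth, and groups of 2 or 3 libraries leave wide intervals.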

Other observations

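Relatives of the 10 genes were mostly low in Caco-2. The villin relative VILL averaged 32.6 to 41.5 TPM in the 4 Caco-2 groups and AVIL 0.48 to 0.59 TPM. Placental-type ALPP and ALPG averaged no more than 4.64 and 2.56 TPM, and tissue-nonspecific ALPL no more than 0.50 TPM. CDH16, the closest relative of CDH17, averaged 9.55 to 17.7 TPM, and the aminopeptidase ENPEP 1.45 to 2.14 TPM. FAP, the nearest relative of DPP4, averaged no more than 0.09 TPM in any group of either line. In HepG2, VILL was at 10.1 to 12.4 TPM in the 4 libraries numbered 3 and at 1.42 to 4.7 TPM in the other 8, the opposite order to MEP1A, and VIL1 did not split in this way.

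Among stem cell genes of the intestinal crypt, ASCL2 was at 22.4 to 47.2 TPM in Caco-2 and at no more than 0.17 TPM in HepG2, whereas LGR5 was at 8.74 to 19.0 TPM in Caco-2 and 67.1 to 123 TPM in HepG2. The stem cell gene OLFM4 did not exceed 0.08 TPM in either line. In Caco-2 the smallest unadjusted p of this list for co-culture against mono-culture was that of SMOC2, with a log2 difference of 0.73 (SE 0.17, limma adjusted p = 0.308).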
